A study of Mus musculus with 4 samples.

Results

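Tumor cells that the authors labelled Cd4 were split by a single gene, the chemokine receptor Ccr8, and the rest of their transcripts were compared. A cell was placed on the positive side when it held 1 or more Ccr8 UMIs (unique molecular identifiers, which count RNA molecules) and on the negative side when it held 0. Of 2451 tumor Cd4 cells, 611 were Ccr8-positive and 1840 were Ccr8-negative, out of 5570 cells in the tumor RNA library and 10558 cells in both RNA libraries. Ccr8 itself chose the sides, so it was left out of all totals and of every comparison between them.

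The series holds 4 samples, an RNA library and a T cell receptor library for tumor, titled transgenic and endogenous, and for lymph node, titled endogenous. Per the labels' protocols, mice carried B16F10 melanoma, a transplantable mouse skin tumor, placed under the skin in matrigel. A 250 mg/kg dose of cyclophosphamide was followed 1 day later by intravenous transfer of CD4 T cells whose transgenic receptor recognises TRP1, a melanocyte protein, and tumors were removed 11 days after the transfer. The donor strain is labelled RAG1- BW TRP-1 TCR, and the treatment label reads untreated although all mice of the protocol received cyclophosphamide. Transferred cells, marked by CD45.1, were sorted from tumor as CD4+ and CD4+CD8+ cells, and 8100 cells entered 10x Genomics 5′ library preparation. The labels used here do not state the number of mice behind a library. Both sides came from the same library, so the comparison had no replicate and no p-value was computed. Intervals cover counting error only. Of the cell barcodes, 36 occurred in both RNA libraries.

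Ccr8 is a chemokine receptor that binds Ccl1 and, in mice, also Ccl8. It is found on type 2 helper cells and on skin-resident T cells, and in tumors it is best known as a surface marker of activated regulatory T cells, which are defined by the transcription factor Foxp3. Klf2, a zinc-finger factor that drives egress receptors such as S1pr1, is high in resting T cells, and granzymes and perforin are the cargo of killer cell granules.

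The windows around the starts of Ccr8 and of Ccl1, which encodes a ligand, are shown because both transcripts were measured in the same cells and Klf2-family factors bind CACCC boxes. Both are RefSeq sequences of build GRCm38.p6, from 250 bases before to 50 after the start, 5′ to 3′ on the strand of the gene. Ccr8 (chr9:120092133-120094906, plus strand) has its window at chr9:120091883-120092182, and Ccl1 (chr11:82176666-82179812, minus strand) at chr11:82179763-82180062. Capitals mark each CACCC box and each match to the NFAT core, whose letters are TTTCC, on either strand, and no marked stretch overlaps another.
Ccr8: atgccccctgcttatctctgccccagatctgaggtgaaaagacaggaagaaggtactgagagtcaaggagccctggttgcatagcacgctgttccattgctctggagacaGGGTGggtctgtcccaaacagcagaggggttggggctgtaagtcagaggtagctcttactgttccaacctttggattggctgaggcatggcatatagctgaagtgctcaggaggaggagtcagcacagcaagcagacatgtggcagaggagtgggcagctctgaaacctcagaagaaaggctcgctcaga
Ccl1: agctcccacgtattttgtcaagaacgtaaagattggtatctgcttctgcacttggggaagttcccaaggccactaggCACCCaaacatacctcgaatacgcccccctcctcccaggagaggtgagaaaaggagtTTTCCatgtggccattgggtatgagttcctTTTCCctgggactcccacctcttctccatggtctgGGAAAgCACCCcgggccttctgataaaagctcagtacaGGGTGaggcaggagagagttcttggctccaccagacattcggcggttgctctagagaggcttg
The Ccr8 window held 1 CACCC box and no TTTCC. The Ccl1 window held 3 CACCC boxes and 3 TTTCC matches. Of 32851 mouse windows of the same length, 57.5% held CACCC and 61.3% held TTTCC on either strand. The AP-1 sequence TGANTCA, present in 7.81% of windows, and the RUNX sequence TGTGGT, present in 16.8%, were found in neither. These matches are descriptions of the letters and were not linked to the counts.

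Tumor Cd4 cells held 1243 Ccr8 UMIs, which is 89.0 CPM (a share of all UMIs of the summed cells, in the usual unit of relative abundance). The share of cells with a UMI was 24.9% (95% Clopper-Pearson interval 23.2% to 26.7%). Among other labels it was 1.63% (1.19% to 2.19%) of 2693 tumor cells labelled Tdp, although these were deeper, with a median of 6633 UMIs against 5533 in tumor Cd4 cells. It was 2.26% of lymph node Cd8 cells, with a median of 6306 UMIs, and 2.56% of lymph node Cd4 cells, with a median of 4763. How much free RNA or rare expression contributes to these low shares, or to the share in tumor Cd4 cells, was not tested. Among 321 lymph node Treg cells it was higher, at 38.0% (32.7% to 43.6%). Only 19 tumor cells were labelled Treg and 9 held a Ccr8 UMI (47.4%, 24.4% to 71.1%), an interval that includes the share in tumor Cd4 cells. After each cell was thinned to 2000 UMIs, leaving out 33 shallower tumor Cd4 cells, 12.7% of tumor Cd4 cells kept a Ccr8 UMI, against 0.751% of tumor Tdp cells and 20.7% of lymph node Treg cells.

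Most positive cells sat close to the threshold. With no test, 335 of the positive cells held exactly 1 Ccr8 UMI, and the neighbouring 1840 negative cells held 0. Cells with 2 UMIs numbered 138, cells with 3 or more also numbered 138, and the highest cell held 16. The 138 cells with 3 or more UMIs carried 50.8% of all Ccr8 UMIs. The UMI numbers varied more than an even spread would give: their variance was 3.0 times their mean of 0.507, and a Poisson draw in proportion to each cell's depth would leave 61.1% of cells at 0 where 75.1% were at 0. How many negative cells carried Ccr8 transcripts that were missed was not estimated.

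**Figure D1:**
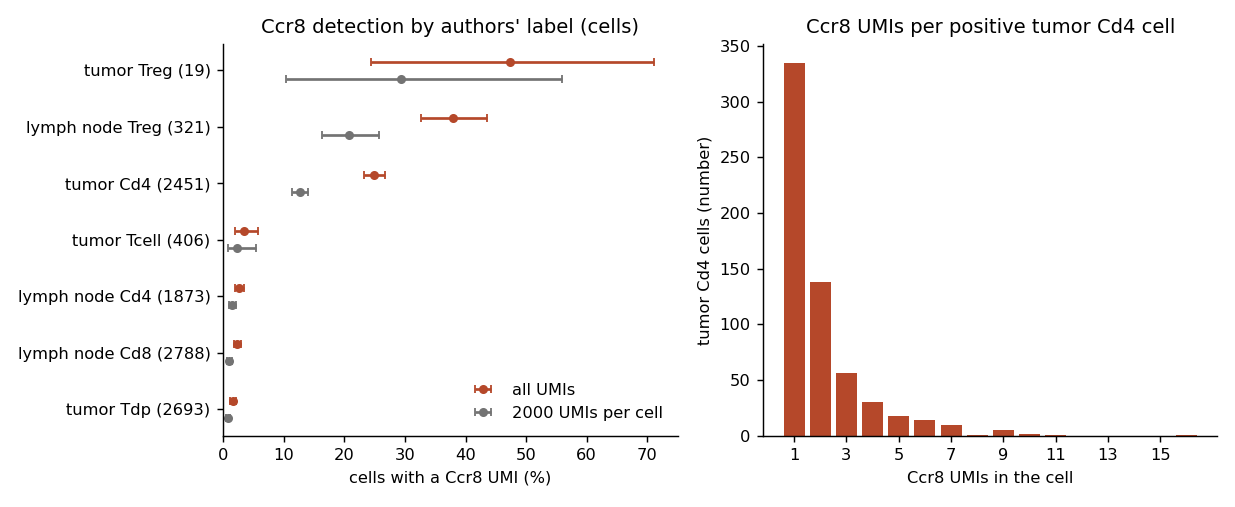
Left, share of cells with a Ccr8 UMI in percent by the authors' label, with 95% Clopper-Pearson intervals, for all UMIs and at 2000 UMIs per cell; cell numbers stand in brackets and labels with under 10 cells are left out. Right, number of tumor Cd4 cells by their Ccr8 UMIs, positive cells only. Tumor Cd4 cells lie at 24.9%, lymph node Treg cells at 38.0%, and the interval of the 19 tumor Treg cells spans both.

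The sides had close medians of depth and quality. Median depth was 5618 UMIs and 1830 genes on the positive side and 5498 UMIs and 1775 genes on the negative side. Mitochondrial transcripts took a median of 2.07% and 2.02%, and ribosomal protein transcripts 27.3% and 28.3%. When the cells were ranked by depth into 5 equal groups, 19.0% of the shallowest were Ccr8-positive, and the others held between 25.9% and 27.1%. Cells under 2000 UMIs numbered 1 on the positive and 32 on the negative side. A receptor chain was called in 608 positive and 1827 negative cells, and both chains in 566 and 1714. The called chains were 1 distinct TRA and 1 distinct TRB sequence, which the transfer of cells with a transgenic receptor sets by design.

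Both sides carried the markers of their label. Cd3e, part of the T cell receptor complex, was at 1925 CPM in positive and 1859 CPM in negative cells, and 10 counted T cell genes had a median log2 ratio of 0.04. A Cd4 UMI was found in 86.1% of positive and 83.8% of negative cells. Cd8a was found in 6 positive cells (0.982%) and 63 negative cells (3.42%). Cd8b1, the other CD8 chain, was found in more, 53 positive cells (8.67%) and 188 negative cells (10.2%). Foxp3 was found in 0 of 611 positive cells, which allows a share of cells with a UMI of up to 0.491% (a floor of 3 counts) and does not limit the cells that express the gene, and in 5 of 1840 negative cells. Summed levels of B cell, macrophage, neutrophil, dendritic, melanoma, fibroblast and endothelial marker lists were at most 26.9 CPM on either side. The natural killer list was at 40.2 CPM in positive and 73.5 CPM in negative cells, lower in positive cells as the called cytotoxic genes were, and its part in their difference was not tested. The gamma delta T list was at 109 and 117 CPM. Of the B cell genes, Cd79a, Ms4a1, Pax5 and Ebf1 were at 0 throughout.

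Few genes separated the sides. A gene was counted when it reached 20 CPM on either side, and called at a 1.5-fold difference of CPM plus 1. Of 4875 counted genes, 19 were higher (0.39%) and 15 were lower (0.308%) in Ccr8-positive cells, and with TMM scaling, which shifts all ratios by about the median, the calls were 13 higher and 16 lower. At 2-fold the calls were 2 higher (0.041%) and 4 lower (0.0821%). The median log2 ratio of all counted genes was 0.04, and the range from the 5th to the 95th percentile ran from -0.22 to 0.31. Because Ccr8 divided the cells of this same library, these counts describe the division and nothing is read from their share. Genes called lower were led by chemokine and killer cell genes (Ccl5, Gzmb, Cd8a, Cd8b1, Prf1) and by Klf2, Itga4 and Ly6c2. Genes called higher included the TNF family members Tnfsf8 and Tnfrsf9, the Ccr8 ligand gene Ccl1, and Ptprs.

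**Figure D2:**
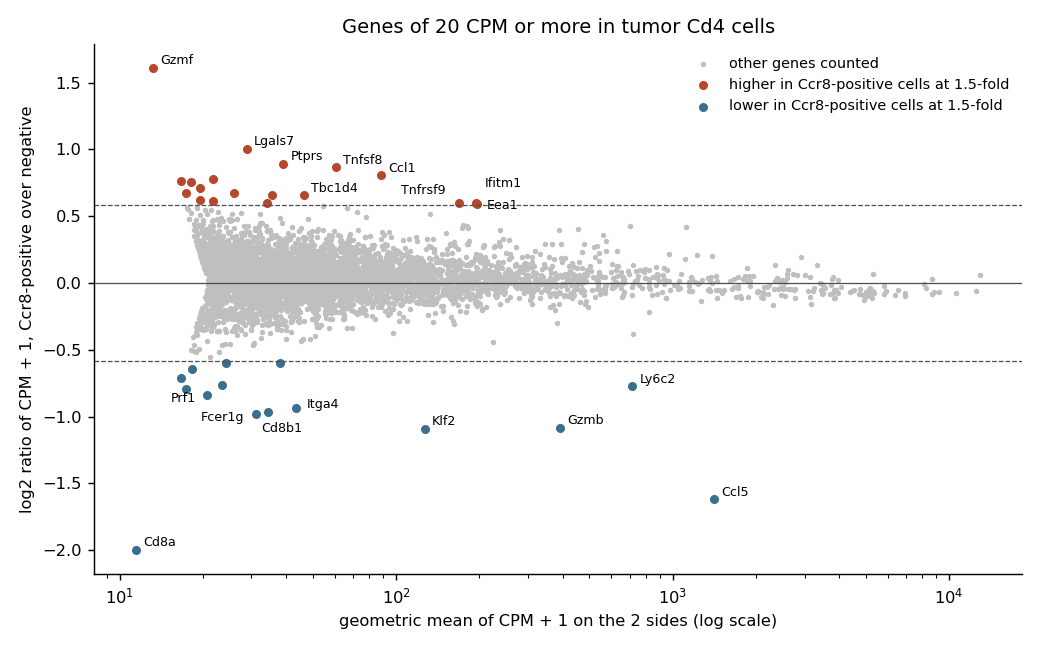
Each point is a gene of 20 CPM or more in tumor Cd4 cells: geometric mean of CPM plus 1 on both sides (log scale) against the log2 ratio of positive over negative cells. Dashed lines mark 1.5-fold; the 19 genes called higher and 15 called lower are coloured, and Ccl5 stands out among abundant genes at -1.62.

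Ccl5, a chemokine typical of effector and memory T cells, showed the largest difference of any gene above 50 CPM. It was at 805 CPM (776 to 835) in positive and 2477 CPM in negative cells, a log2 ratio of -1.62 (-1.68 to -1.57), or 3.08-fold lower. A Ccl5 UMI was present in 31.4% of positive and 45.2% of negative cells, so the share of cells accounted for less of the gap than the amount in the cells that held it. Up to 384 Ccl5 UMIs were found in a negative cell and up to 337 in a positive one. The ratio was -1.61 with negative cells weighted to the depths of the positive ones, and -1.77 at 2000 UMIs per cell.

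Gzmb, granzyme B, was at 267 CPM in positive and 568 CPM in negative cells, 2.13-fold lower with a log2 ratio of -1.09 (-1.19 to -0.99). Gzmb was detected in 37.0% of positive and 50.8% of negative cells, and at 2000 UMIs in 24.3% and 37.9%. Prf1, the pore protein perforin, was at 14.5 and 26.7 CPM (-0.84). Cd8a and Cd8b1, the chains of the CD8 co-receptor, were at 4.74 and 21.97 CPM (-2.00) and at 23.7 and 47.2 CPM (-0.96). With Ccl5, these were the 5 members of the CD8 and cytotoxic list that were called lower, among 16 counted members with a median log2 ratio of -0.20, and none was called higher. The other members ranged from Klrc1, an inhibitory lectin-like receptor, at -0.30 (344 and 424 CPM) to Srgn, a granule proteoglycan, at 0.20 (3118 and 2717 CPM). Nkg7, another granule gene, was at 2181 and 2441 CPM (-0.16), and the interferon gene Ifng was at 339 and 350 CPM (-0.04). The lower levels thus did not extend to all effector genes. Gzmf, a granzyme gene outside the CD8 and cytotoxic list, was called higher (1.61), but only 12 positive and 19 negative cells held its UMIs.

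Several of the genes lowest in Ccr8-positive cells were abundant in the Tdp cells of the same library. In those 2693 cells Ccl5 was at 19650 CPM, Gzmb at 3056 CPM, Ly6c2 at 2743 CPM, Cd8b1 at 1118 CPM and Cd8a at 751 CPM, each above both sides of the Cd4 cells. Of the 15 lowest named genes, 8 were above both sides in Tdp cells, against 20.9% of all 4875 counted genes, and of the 15 highest, 14 were below both sides, against 63.3% of all counted genes. The named genes are the ends of this same ranking, taken from 2331 genes with at least 50 CPM on the higher side. The shares beside them cover genes from 20 CPM, so they are not like for like and nothing is read from them. Some of the lowest lay just above, such as Mt3 at 56.5 CPM in Tdp cells and 55.5 CPM in negative cells. Among the highest, Tnfsf8 was at 4.17 CPM and Ccl1 at 2.74 CPM in Tdp cells. Klf2 (183 CPM in Tdp cells) and Itga4 (24.4 CPM) did not follow this order. Whether Tdp cells or mixed droplets among the negative cells contribute to the differences was not tested as such. Without the cells that held a Cd8a or Cd8b1 UMI, which left 558 positive and 1642 negative cells, Ccl5 was at 589 and 2018 CPM (-1.77) and Gzmb at 258 and 506 CPM (-0.97). In that setting 26 of 4875 counted genes were called higher and 10 lower. A setting chosen after seeing the data left out every cell that held a Gzmb UMI. There Ccl5 was at 347 and 721 CPM (-1.05), Klf2 at -0.75 and Itga4 at -0.90. Cd8b1 was at 14.1 and 13.8 CPM (0.02) and Prf1 at 7.71 and 8.55 CPM (-0.13), both under the 20 CPM minimum.

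Klf2 was at 85.9 CPM in positive and 184 CPM in negative cells, a log2 ratio of -1.09 (-1.28 to -0.92). It was detected in 23.9% and 32.1% of cells. Other genes of resting and lymph node homing T cells did not share its difference: Il7r, the interleukin-7 receptor, was at 124 and 110 CPM (0.18), Lef1, a stemness factor, at 54.4 and 63.5 CPM (-0.22), and Tcf7 was detected in 6.38% and 6.68% of cells. S1pr1, a Klf2 target that guides exit from tissue, was detected in 4.91% and 6.41% of cells. The list of 6 counted naive and homing genes had a median of 0.02, with Klf2 as its only call.

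Itga4, the integrin alpha-4 chain that binds VCAM-1, was at 30.4 and 59.0 CPM (-0.93), and was the only call among 6 counted integrins. Its partner chains Itgb1 and Itgb7 were at 147 and 140 CPM (0.08) and at 64.7 and 64.0 CPM (0.02). At 2000 UMIs per cell the Itga4 ratio was -1.53. Ly6c2, a surface protein of effector and memory T cells whose reads may be shared with the near-identical Ly6c1, was at 545 and 932 CPM (-0.77). Fcer1g, a signalling adaptor of natural killer and myeloid cells, was at 21.2 and 42.9 CPM (-0.98), and 4 positive cells (0.655%) and 31 negative cells (1.68%) held UMIs of 2 or more natural killer list genes. Whether those cells account for part of the Fcer1g difference was not tested.

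The remaining genes at the low end differed by less than 1.5-fold. Zfp36, which promotes decay of cytokine messages, was at 192 and 261 CPM (-0.44), and Klf6, a zinc-finger factor, at 627 and 817 CPM (-0.38). Havcr2, the inhibitory receptor TIM-3, was at 84.8 and 110 CPM (-0.37), the only member of 10 counted inhibitory receptors below 0. Pdcd1, Lag3 and Ctla4, which restrain activated T cells, were at 0.16, 0.13 and 0.20 on the log2 scale. Gbp9, Sgk1, Mt3, Mark2, Rrad and Mrps26 lay between -0.43 and -0.34. The metallothioneins Mt1, Mt2 and Mt3, which bind zinc and other metals, were all below 0, with a median of -0.26.

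Among the genes higher in Ccr8-positive cells, Ptprs, a receptor-type tyrosine phosphatase, had the largest ratio above 50 CPM. It was at 52.2 CPM (45.0 to 60.2) in positive and 27.7 CPM (24.5 to 31.0) in negative cells, a log2 ratio of 0.89 (0.64 to 1.19). It was detected in 23.1% and 12.6% of cells, with at most 4 UMIs in any cell, so the difference was spread over many cells. At 2000 UMIs per cell the ratio was 0.62.

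The called genes included 1 ligand and 1 receptor of the TNF family. Tnfsf8, the ligand of CD30, was at 80.6 and 43.7 CPM (0.87, interval 0.66 to 1.10), 1.84-fold higher, and at 0.28 without cycling cells. Cells called cycling held 2 or more UMIs summed over a list of 18 proliferation genes, of which 6 reached 20 CPM. This loose cut took in most cells of both sides, and whether they were dividing was not tested. Leaving them out kept 172 positive and 510 negative cells. Tnfrsf9, the costimulatory receptor 4-1BB, was at 206 and 136 CPM (0.60, 0.47 to 0.73) and was detected in 45.5% of positive and 33.6% of negative cells. Tnfsf11, the ligand RANKL, was at 158 and 110 CPM (0.51), under the 1.5-fold line. The costimulatory receptors Tnfrsf4 (OX40) and Tnfrsf18 (GITR) were at 1292 and 967 CPM (0.42) and at 523 and 396 CPM (0.40). Of 7 counted TNF receptor genes 1 was called higher and none lower, with a median of 0.24. Of 9 counted TNF ligands 1 was called higher and none lower, with a median of -0.03. The ligands lay on both sides of 0: Tnfsf9, the ligand of Tnfrsf9, was at 86.8 and 102 CPM (-0.23), Fasl, the death ligand, at 157 and 182 CPM (-0.21), Cd40lg, which licenses antigen-presenting cells, at 157 and 164 CPM (-0.07) and Tnf at 221 and 227 CPM (-0.04).

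Ccl1, a ligand of Ccr8, was itself higher in the cells with Ccr8. It was at 116 CPM (105 to 127) in positive and 65.6 CPM (60.8 to 70.7) in negative cells, a log2 ratio of 0.81 (0.64 to 0.99). Few cells carried it: 75 positive cells (12.3%) and 120 negative cells (6.52%), with up to 68 and 48 UMIs in a cell. Read the other way, 23.8% of cells without Ccl1 were Ccr8-positive, 32.1% of those with 1 Ccl1 UMI, 46.0% of those with 2 to 4 and 40.6% of those with 5 or more. The ratio at 2000 UMIs was 0.71, and without cells holding a Cd8a or Cd8b1 UMI it was 0.60. With sides drawn from the thinned UMIs, which moves many positive cells to the negative side, it was 0.26.

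Other chemokine genes split by direction. Of 5 counted chemokines, Ccl1 and Xcl1 were called higher and Ccl5 lower. Xcl1, which draws cross-presenting dendritic cells, was at 23.2 and 14.7 CPM (0.62), but its ratio was -1.19 among cells of the middle depths and -0.49 without cycling cells. Ccl3 and Ccl4, inflammatory chemokines, were at 262 and 212 CPM (0.30) and at 905 and 867 CPM (0.06). Their detection went the other way: Ccl3 was found in 15.2% of positive and 20.8% of negative cells, and Ccl4 in 34.2% and 44.7%. For 2 or more Ccr8 UMIs against 0 their ratios were -1.66 and -0.65. Of 5 counted chemokine receptors other than Ccr8, none was called in either direction, and their median was -0.15. Cxcr6, a receptor of tissue-resident T cells, was at 345 and 292 CPM (0.24), and Cxcr3, a type 1 homing receptor, at 73.4 and 81.3 CPM (-0.15). Ccr4, often found together with Ccr8 on type 2 and regulatory cells, was detected in 1 positive and 3 negative cells.

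The other leading genes had varied roles. Eea1, an early endosome tether, was at 241 and 159 CPM (0.60), and its range over 15 alternatives, 0.49 to 0.64, stayed inside its counting interval. Tbc1d4, a regulator of glucose transporter traffic, was at 57.2 and 35.9 CPM (0.66). Ifitm1, an interferon-inducible membrane protein, was at 239 and 157 CPM (0.60), with up to 94 UMIs in a cell, and its ratio without cycling cells was -0.57. Itpr1, a calcium release channel, Nrgn, a calmodulin-binding protein, and Sdf4, a calcium-binding protein of the Golgi, were at 0.56, 0.53 and 0.43. Inpp4b, a lipid phosphatase, and Bcl2a1d, a survival protein with near-identical copies, were both at 0.43. Tnfaip8l1 and the SUMO ligase Pias1 were at 0.57 and 0.48. Gzmf had the highest ratio of all counted genes (1.61, at 22.04 and 6.55 CPM), but only 12 positive and 19 negative cells carried it and 1 positive cell held 44 of its 79 UMIs on that side. Its reads may also be shared with near-identical granzyme genes.

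**Figure D3:**
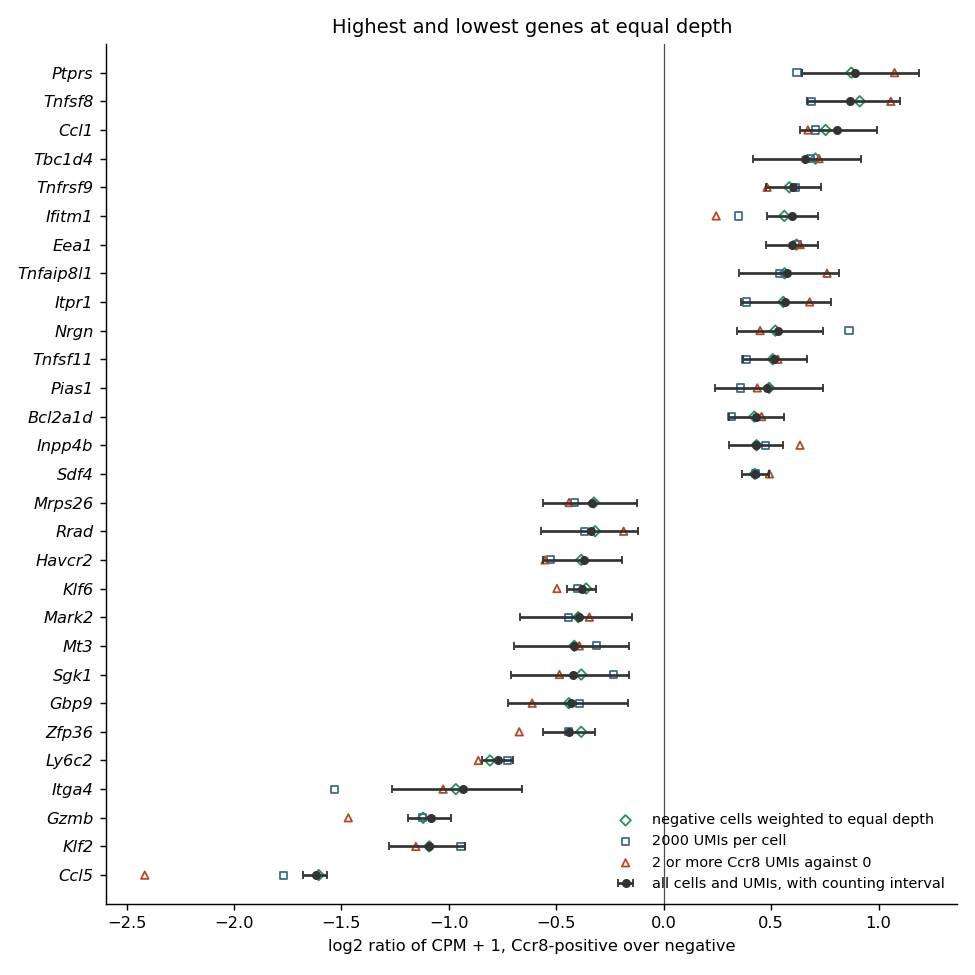
Log2 ratio of CPM plus 1, positive over negative cells, for the named genes at both ends of the ranking. Black points with bars are all cells and UMIs with the 95% counting interval; open symbols are negative cells weighted to equal depth, 2000 UMIs per cell, and cells with 2 or more Ccr8 UMIs against 0. All settings drawn kept the direction of every gene drawn, and Ccl5 reached -2.42 with 2 or more Ccr8 UMIs.

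Genes often used to describe regulatory T cells leaned to the positive side, which held no Foxp3 UMI. All 10 counted members of that list had a log2 ratio above the 0.04 that was the median of all genes, and the list's own median was 0.31, but only Tnfrsf9 passed 1.5-fold. Ebi3, a subunit of interleukin-35, was at 24.3 and 17.8 CPM (0.43), Il2ra, the interleukin-2 receptor alpha chain, at 101 and 78.7 CPM (0.36), Nrp1, a semaphorin receptor, at 86.5 and 72.5 CPM (0.25), and Ctla4 at 559 and 487 CPM (0.20). Ikzf2, a regulatory T cell factor, was detected in 5.56% of positive and 6.25% of negative cells. Several of these genes are also induced by activation in other CD4 cells, and they were shared with other lists.

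The NF-kappaB list, regulators and targets of the pathway downstream of TNF receptors, lay mostly above the median of all genes. Of its 20 counted genes 18 were above it and none was called, with a median of 0.21. Rel, a subunit, was at 287 and 228 CPM (0.33), Nfkbie, an inhibitor, at 107 and 84.0 CPM (0.34), and Bcl2l1, the survival protein BCL-XL, at 61.7 and 46.6 CPM (0.40), whereas Nfkbia, an early inhibitor, was at 2378 and 2448 CPM (-0.04). Reporters of T cell receptor signalling were mixed, with 11 of 19 above the median of all genes, none called and a median of 0.07: Nr4a3 was at 0.32 and Egr2 at 0.32, while Fos was at -0.29 and Myc at -0.46. The follicular helper list had 6 of 7 members above it and a median of 0.25, led by the costimulator Icos at 446 and 338 CPM (0.40). Il21, its cytokine, was detected in 10.3% and 10.2% of cells. Glycolysis genes had 13 of 19 members above it, with a median of 0.16, led by the lactate transporter Slc16a3 (0.45).

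The lists of helper subsets gave few calls. Of 12 counted type 1 genes, Ly6c2 alone was called, and the median was -0.02. The type 1 regulators Tbx21 and Stat4 were at 190 and 166 CPM (0.20) and at 132 and 104 CPM (0.34). Of 5 counted type 2 genes, 1 was called lower, Nfil3, a leucine-zipper factor at 12.3 and 21.97 CPM (-0.79). Gata3, the type 2 master regulator, was at 45.2 and 56.9 CPM (-0.33) and was detected in 21.3% and 23.3% of cells. The proliferation list had a median of -0.05, the type I interferon list 0.09 and the dissociation stress list -0.05. Lists of cytokines, cytokine receptors, type 17 and CD4 helper genes, exhaustion factors, residency, cell survival, antigen presentation, S100 and annexin proteins, tetraspanins and RGS proteins had medians from -0.04 to 0.18, and Xcl1 was their only called member. Among these, Tgfb1, the immunosuppressive cytokine TGF-beta, was at 527 and 431 CPM (0.29).

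**Figure D4:**
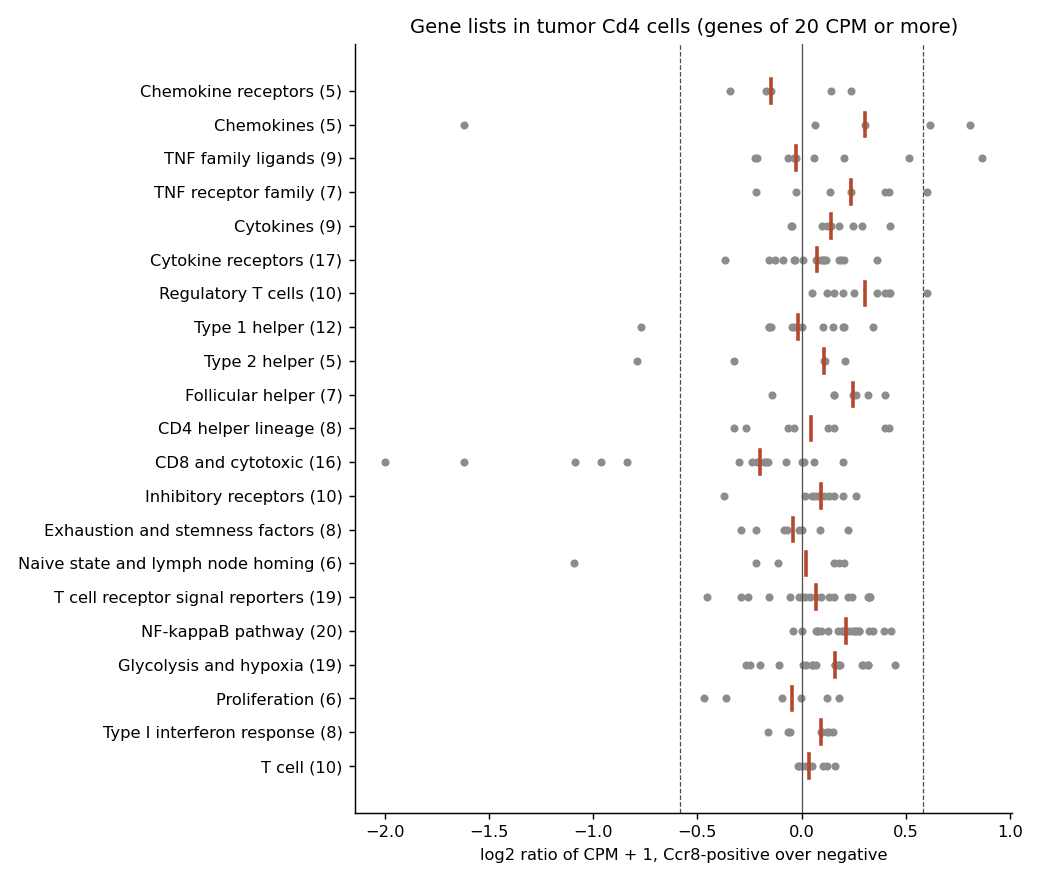
Log2 ratio of each counted member of the gene lists (grey points), with the median of each list in red; the number of counted members stands in brackets. Dashed lines mark 1.5-fold. All 10 regulatory T cell list members lie above the all-gene median of 0.04, and 5 CD8 and cytotoxic members lie below the lower line.

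Levels were also followed over the number of Ccr8 UMIs per cell, in 1840 cells with 0, 335 with 1, 138 with 2 and 138 with 3 or more, whose median depths were 5498, 5662, 5411 and 5940.5 UMIs. Ccl5 was at 2477, 1087, 389 and 534 CPM in that order. Gzmb was at 568, 318, 226 and 185 CPM, lower at each step. Klf2 was at 184, 89.0, 90.0 and 74.8 CPM, so cells with 1 UMI were already near the level of those with more. Itga4 behaved like Klf2, with 59.0, 32.0, 29.2 and 27.7 CPM. Among the higher genes, Tnfrsf4 was at 967, 1188, 1330 and 1503 CPM, Tnfrsf18 at 396, 499.6, 521 and 582 CPM, and Tnfsf8 at 43.7, 71.2, 76.1 and 107 CPM. Sdf4 was at 607, 784, 832 and 874 CPM, and Inpp4b at 155, 182, 226 and 255 CPM. Ccl1 did not follow this order: it was at 65.6, 124, 145 and 67.5 CPM, with shares of cells holding a Ccl1 UMI of 6.52%, 14.0%, 9.42% and 10.9%. In cells with 3 or more Ccr8 UMIs the Ccl1 level was thus near that of negative cells, while the share of cells lay above it, within a wide interval of 6.21% to 17.3%. Tnfrsf9 was at 136, 220, 190 and 189 CPM. At 2000 UMIs per cell, Tnfrsf18 was at 418, 523, 573 and 558 CPM. Tnfsf8 was then at 45.9, 71.9, 65.2 and 90.6 CPM, so neither of these genes rose at each step. Gzmb, Tnfrsf4, Sdf4 and Inpp4b kept their order at 2000 UMIs. Cells with 2 or more Ccr8 UMIs against cells with 0 gave 60 genes higher (1.21%) and 34 lower (0.688%) of 4940 counted.

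**Figure D5:**
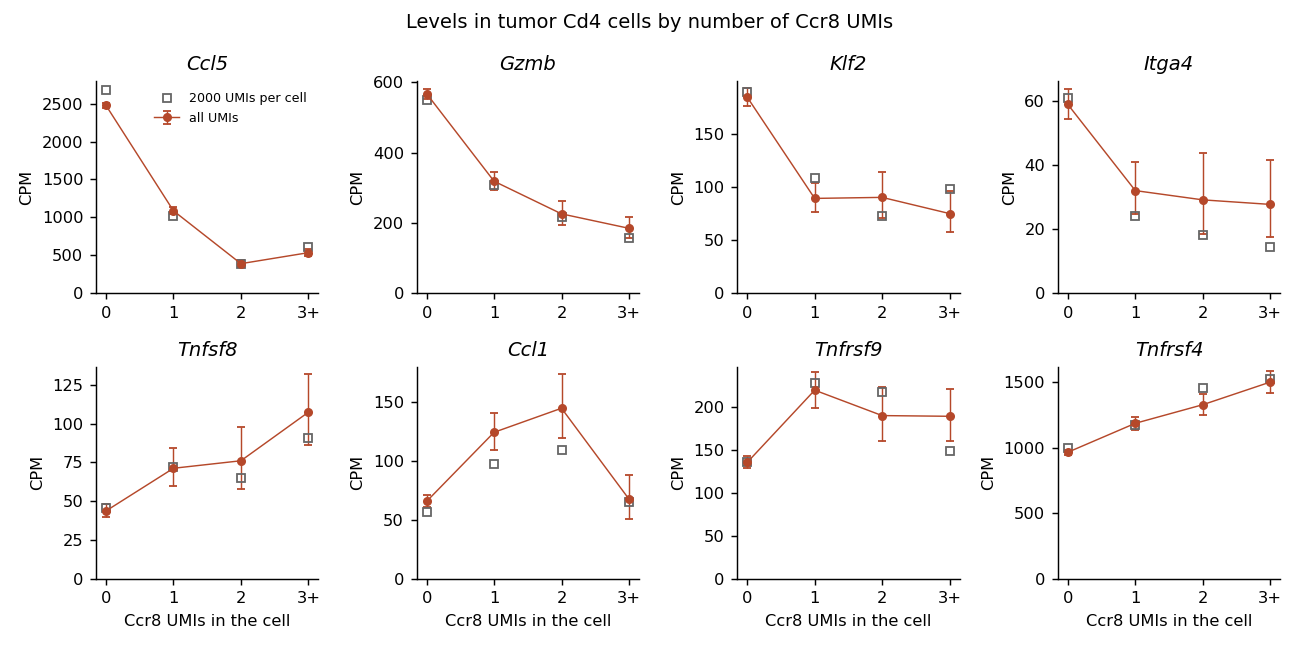
CPM of 8 genes in tumor Cd4 cells with 0, 1, 2 and 3 or more Ccr8 UMIs, with 95% Poisson intervals for all UMIs (red) and the value at 2000 UMIs per cell (open squares). Gzmb is lower and Tnfrsf4 is higher at each step, from 967 to 1503 CPM, while Ccl1 is highest at 2 UMIs.

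Seen from the other gene, the share of Ccr8-positive cells was 29.4% (27.0% to 31.8%) in cells without Ccl5 and 9.92% (6.46% to 14.4%) in 242 cells with 30 or more Ccl5 UMIs. It was 29.8% without Gzmb and 11.7% in 206 cells with 10 or more Gzmb UMIs. By Klf2 it was 27.1% at 0 UMIs and 13.2% in cells with 3 or more. By Tnfrsf9 it was 21.4% at 0 UMIs and 37.3% in cells with 4 or more. By Il21 it hardly varied, at 24.9%, 24.8% and 25.7% for 0, 1 and 2 or more UMIs. Cells with a Cd8a UMI had 8.70% (3.26% to 18.0%) positive cells, 6 of 69, at a median depth of 8120 UMIs.

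The same split was made in lymph node Treg cells, with Ccr8-positive cells in larger number than in the tumor Tdp (44) and lymph node Cd4 (48) cells, which had too few for the split. Lymph node Cd8 cells, with 63 positive cells, were not split. In lymph node Treg cells the split set 122 positive cells, with a median of 5781 UMIs, against 199 negative cells, with a median of 5091, and called 747 genes higher (13.5%) and 264 lower (4.76%) of 5552. The lymph node cells are titled endogenous by the submitters, whereas the receptor chains called in tumor Cd4 cells were those of the transgenic receptor. The library, the cell label and the cell number differ too, so values stand side by side. The difference between the contrasts was not tested. Tnfrsf9 was at 502 and 178 CPM there (1.49, against 0.60 in tumor Cd4 cells), Tnfrsf4 at 1728 and 891 CPM (0.96) and Tnfrsf18 at 708 and 443 CPM (0.68). Klf2 was at 663 and 1195 CPM (-0.85), Itga4 at 21.6 and 43.0 CPM (-0.96), Eea1 at 90.3 and 47.4 CPM (0.91) and Sdf4 at 541 and 320 CPM (0.76). These genes were picked as examples. Of the 15 highest named genes of tumor Cd4 cells, 11 were counted in lymph node Treg cells and 7 of them were above 0, where 62.7% of all genes were above 0. Of the 15 lowest, 14 were counted and 9 were below 0. Of the highest, Inpp4b was at 298 and 327 CPM (-0.13) and Tnfsf11 at 15.3 and 20.6 CPM (-0.41), and Havcr2, of the lowest, was at 20.3 and 4.48 CPM (1.96), from 16 and 5 UMIs. Gzmb was at 170 and 167 CPM (0.03), Tnfsf8 at 68.7 and 75.2 CPM (-0.13) and Ccl5 at 106 and 127 CPM (-0.27), and Ccl1 had 2 UMIs in positive and 0 in negative cells. Foxp3 was at 450 CPM in positive and 354 CPM in negative lymph node Treg cells.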

How the data were processed

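The authors deposited raw UMI counts per gene and cell in a table for both RNA libraries, with 14721 genes and 10558 cells, and each entry proved to be a whole number of 0 or more. A second deposited table gives other values per cell, namely the library, the authors' cell label and the receptor chains. The submitters' processing notes name Cell Ranger 3.1.0 and build mm10. Not given in the sources used here are the filters before deposition, the rule behind the cell labels and any doublet removal.

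Counts were summed per side and divided by the UMIs of the side without Ccr8. The positive side held 3585049 UMIs and the negative side 10379425. Ratios are log2 of CPM plus 1. Their 95% intervals are the exact conditional ones for Poisson counts and do not include the added 1. V, D and J segments of the receptor genes were not counted among genes. The text names 15 genes at each end of the ranked ratios, taken from genes that had at least 50 CPM on the higher side and at least 100 UMIs over both sides. A few of these and of the list members are not reported here. This naming passed over Ccr8, Xist, Y-linked genes, predicted genes, V, D and J segments, and mitochondrial and ribosomal protein transcripts. List members and called genes below 50 CPM were named as examples, the latter after their values were seen. The comparison with Tdp cells was also added after the data were seen. There were 41 lists with 472 genes, 439 of them in the table. The members and the lists were chosen with earlier results of these data known. Alternatives were other scalings (edgeR 4.0.16 for TMM), depth matching in 20 bins, thinning to 2000 UMIs, other thresholds and left-out cells. Python 3.11.15, numpy 2.4.6, scipy 1.17.1, pandas 2.3.3 and scanpy 1.11.5 were used, and the contrast was tested on simulated data.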

Additional observations from a re-analysis of the deposited data

How the results depend on the processing

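The share of tumor Cd4 cells with Ccr8 was 12.7% at 2000 UMIs and 11.3% when 2 or more UMIs were asked. Calls higher and lower, 19 and 15 of 4875 genes counted as reported, came to 115 and 72 of 5005 at 2000 UMIs with the sides kept. They were 263 and 195 of 5082 with sides drawn from the thinned UMIs, and 69 and 29 of 4955 in the middle 50% of depths. For 2 or more Ccr8 UMIs against 0 they were 60 and 34 of 4940, and without cycling cells 189 and 147 of 4972. They came to 399 and 407 of 14610 with no CPM minimum, and to 7 and 5 of 2464 at 50 CPM. With a pseudocount of 10 they were 5 and 8 of 4875, and at 2-fold 2 and 4 of 4875. Without cells with a Gzmb UMI, an alternative chosen after seeing the data, they were 41 and 23 of 4924. Scaling to the UMIs left after removing ribosomal protein, mitochondrial and receptor genes gave 34 and 22 of 5983. Its smaller total raises every CPM, so more genes pass the 20 CPM minimum. The other settings use fewer UMIs, fewer cells, another threshold or another pseudocount, and otherwise the cause was not tested. Calls higher made up 55.9% of all calls as reported, 44.8% with TMM, 72.2% without cells with a CD8 gene UMI, 70.4% in the middle depths and 38.5% with a pseudocount of 10. With negative cells weighted to equal depth, 16 of the 19 and 15 of the 15 were still called. The cycling definition, 2 or more proliferation UMIs, took in 71.8% of positive and 72.3% of negative cells. It is a loose cut and does not show that these cells were dividing. Over 52 genes and their alternatives, 654 of 780 values stayed within the counting interval, 111 moved beyond it and 15, all of called genes, changed sign. Without cycling cells Ifitm1 was at -0.57, Gzmf at -1.26, Pacsin1 at -0.068 and Xcl1 at -0.49. In the middle depths Gzmf was at -0.26 and Xcl1 at -1.19. With sides drawn from thinned UMIs Fam46a was at -0.18, Gzmf at -0.29, Lgals7 at -0.045, Serpinb9b at 0.30 and Xcl1 at -0.38. Without cells with a Gzmb UMI Cd8b1 was at 0.022, Gm156 at 0.38, Gzmf at -0.32 and Serpinb9b at 0.41. Gzmf was then at only 0.454 CPM in positive and 0.814 CPM in negative cells. The scrublet doublet caller marked 4 cells of the tumor library (0.0718%), too few for the caller to be relied on, and whether doublets were removed before deposition is unknown. No paired analysis was possible because each group has 1 library.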
